A study of Mus musculus with 11 samples.

Results

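Ribosome biogenesis genes encode the nucleolar and assembly factors that transcribe ribosomal RNA, cut and modify it, and fold it with ribosomal proteins into the subunits of the ribosome. The 38 mouse genes described here are such factors, chosen by symbol with earlier results of these data known. Counts and medians over them are therefore descriptive. All 38 were among the 12430 genes of the deposited count table. Enough counts for a test were present in 35 of them, out of 10067 genes tested in all. The remaining 3, Ncl, Wdr12 and Nip7, stayed below the count filter and are given by their values.

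The cells were fibroblasts sorted from the thymus, the organ in which T cells develop, of young male wild-type mice, as CD45-, CD31-, CD34+ and PDGFRalpha+ cells, with EpCAM listed as positive in the labels. There were 4 libraries from age-matched mice that received no injection, 3 taken 18 h and 4 taken 4 d after intraperitoneal dexamethasone, a synthetic glucocorticoid that shrinks the thymus, at 200 ug per 10 g of body weight. Because the controls were not injected, the drug and the injection cannot be told apart. Libraries were made by MARS-seq, in which reads come from the 3' ends of polyadenylated transcripts. The series concerns how the thymus recovers from such damage. The labels do not say that replicates were separate animals, and the p-values therefore reflect no more than the scatter among these libraries, which could be technical.

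Ribosomal RNA is transcribed by RNA polymerase I inside the nucleolus, and its precursor is bound there by large complexes that separate the small (40S) from the large (60S) subunit. Small nucleolar RNAs (snoRNAs) guide the chemical modification of the precursor: box C/D particles add methyl groups and box H/ACA particles convert uridine to pseudouridine. In many cell types the pathway is controlled by growth signals, and the MYC transcription factor, which binds the E-box CACGTG together with MAX, is known to activate many of its genes.

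Total counts ranged from 916281 to 3357113 per library, with 18 h replicate 2 (924731) and 4 d replicate 4 (916281) the smallest. A count of 0 there allows up to 3.65 and 3.74 CPM, the count scaled to a library of 1000000 counts, against 1.0 CPM in the deepest library. The 18 h replicate 2 library stood apart, with a mean correlation of 0.876 with its group on the log2 scale, against 0.909 to 0.947 for the other 10. Summed fibroblast markers, 9 of 9 in the table, ran from 12504 to 20088 CPM in untreated libraries, from 5880 to 10917 at 18 h and from 14468 to 24032 at 4 d, and Pdgfra was present in every library. Epcam reached only 0.38 to 10.4 CPM in the 11 libraries, although the labels list its protein as a positive sort marker.

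The MYC-type E-box was looked for in the promoters because many of these genes moved together, and the 8 members that hold one are shown. RefSeq promoters of the GRCm38.p6 build, which run from 250 bases before to 50 after the annotated start, were found for 30 of the 38 members. The sequence CACGTG, which reads the same on both strands, occurred in 8 of these 30 (26.7%), and in 978 of 8056 tested genes with a promoter entry (12.1%). The 30 include Ncl, Wdr12 and Nip7, which were not tested and hold no CACGTG there, whereas the comparison covers tested genes only. Each line gives the E-box in capitals with up to 12 bases on either side, 5' to 3' on the strand of the gene, within the RefSeq entry.
Nop2, chr6:125131811-125131840, + strand: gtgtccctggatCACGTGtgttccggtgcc
Ltv1, chr10:13193092-13193121, - strand: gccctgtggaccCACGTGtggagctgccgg
Mybbp1a, chr11:72441355-72441376, + strand: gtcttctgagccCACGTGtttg
Tsr1, chr11:74898092-74898121, + strand: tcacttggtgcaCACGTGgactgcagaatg
Pes1, chr11:3963965-3963994, + strand: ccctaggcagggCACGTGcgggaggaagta
Utp20, chr10:88826765-88826789, - strand: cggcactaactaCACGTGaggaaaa
Utp4, chr8:106893643-106893672, + strand: tgcgcaagcgcgCACGTGgggccggggcgg
Wdr43, chr17:71616220-71616249, + strand: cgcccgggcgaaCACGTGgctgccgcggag
In 7 of the 8 (87.5%) the E-box began at or after the annotated start, from 2 bases after it in Pes1 to 40 in Mybbp1a, and the exception was Nop2, where it began 60 bases before the start. Of 1185 E-boxes in promoters of tested genes, 13.7% began at or after the start. An E-box was present in 3 of the 11 members with a promoter entry that were called higher at 18 h (Nop2, Ltv1 and Mybbp1a) and in 5 of the 16 that were tested and not called. The ETS-type motif CCGGAAGT on either strand occurred in 8 of 30 members (26.7%) and in 9.30% of tested genes. GGCGGG was present in 63.3% of members and 69.6% of tested genes, and TATAAA in 6.67% and 8.81%. No matches of different motifs shared bases in the members. A match describes these letters only, and binding was not measured.

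At 18 h after dexamethasone, 16 of the 35 tested genes were higher than in untreated fibroblasts and 0 were lower by edgeR's quasi-likelihood test, at a p below 0.05 after Benjamini-Hochberg adjustment over the whole table. Over all 10067 genes, 7.85% were called higher and 4.69% lower. All 35 fitted differences were positive, as were 48.1% over all genes, with a median log2 difference of 1.0 against -0.03 over all genes tested, and they ran from 0.04 in Npm1 to 2.14 in Rrp12. An unadjusted p below 0.05 was found for 27 of the 35, and for 15.4% of all genes in this direction. In 20 of the 35 every 18 h library exceeded every untreated library, which held in the same direction for 12.2% of all genes. Rrp1b, among these 20, had 2 to 7 counts in untreated libraries and reached the count filter only through treated libraries. Its positive differences here and at 4 d were therefore favoured by the filter, as was its lack of overlap at 18 h.

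The change was visible library by library. Summed over all 38 genes, the level was 892 to 1127 CPM in the 4 untreated libraries, 2004 to 2118 CPM at 18 h and 1652 to 2194 CPM at 4 d. Neither treated group overlapped the untreated one, and the group means were 1018 ± 96.6 (SD, n = 4), 2042 ± 65.9 (SD, n = 3) and 1859 ± 238 CPM (SD, n = 4). In each of the 7 treated libraries, 27 to 30 of the 35 genes lay above the highest untreated library, against 19.5% to 32.9% of all genes tested. The median of the 35 genes over their untreated mean was 1.07, 1.15 and 0.96 on the log2 scale in the 18 h libraries and 0.77, 0.80, 1.02 and 1.0 at 4 d. Untreated replicate 1 lay highest among the controls, at 0.33, and the other 3 lay between -0.12 and -0.03. As these are bulk samples, a higher share of cells that express a gene and more RNA of that gene per cell cannot be told apart.

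**Figure D1:**
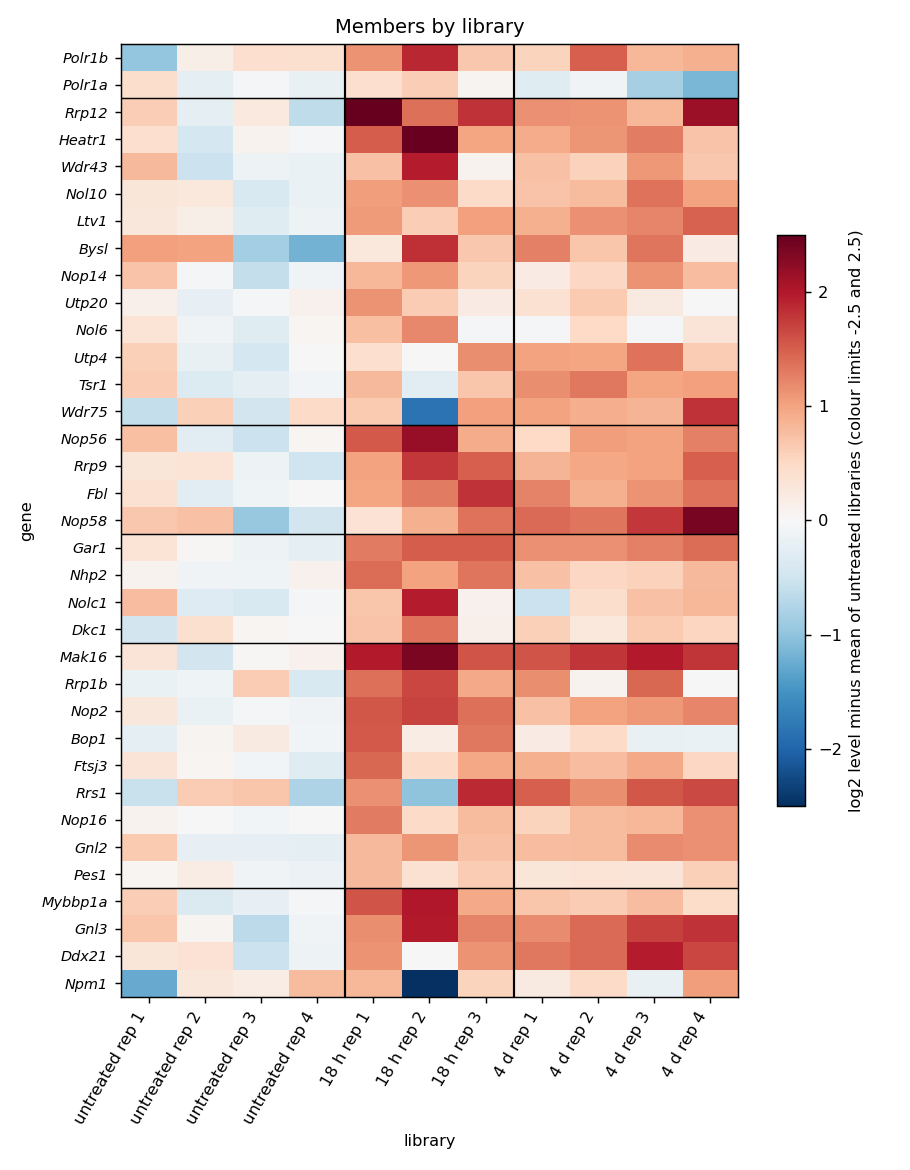
Level of the 35 tested genes (rows, grouped by role with black lines) in the 11 libraries (columns), as log2 CPM minus the mean of the untreated libraries, with red higher and blue lower. In each treated library 27 to 30 of the 35 genes exceed the highest untreated library, and the most scattered column is 18 h replicate 2.

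Markers of other cell types also differed at 18 h. Endothelial markers, 10 of 10 in the table, summed to 206 to 324 CPM in untreated libraries, 214 to 707 CPM at 18 h and 109 to 255 CPM at 4 d, and 4 of their 7 tested genes were higher at 18 h. Pecam1, a defining endothelial gene, was at 0 to 3.78 CPM in untreated libraries, at 122, 14.6 and 42.9 CPM in 18 h replicates 1 to 3, and at 1.82 to 12.05 CPM at 4 d. Macrophage and monocyte markers, 9 of 12 in the table, summed to 76.1 to 182 CPM in untreated libraries, 153 to 305 CPM at 18 h and 88.8 to 163 CPM at 4 d. Pericyte and smooth muscle markers, 10 of 11, were at 133 to 301, 403 to 1088 and 119 to 185 CPM. Thymic epithelial markers, 6 of 10, summed to 310 to 692, 448 to 659 and 80.3 to 758 CPM. Thymocyte markers, 9 of 13, summed to 14.0 to 62.7, 15.8 to 63.9 and 4.96 to 29.0 CPM. At 18 h, 5 of 9 tested macrophage and monocyte genes were higher, as were 4 of 9 pericyte and smooth muscle genes. Of the latter, 1 was lower. Of the 5 epithelial and 3 thymocyte genes tested, 0 were called. Over all genes tested, 7.85% were higher and 4.69% lower. In 18 h replicate 2 the endothelial sum, 214 CPM, lay within the untreated range, but its pericyte sum, 542 CPM, and its Pecam1 lay above it. Kdr, an endothelial receptor gene that made up a large share of the untreated sum at 70.8 to 122 CPM, was at 12.2 to 41.96 CPM at 18 h. At 4 d the endothelial, macrophage and pericyte sums overlapped their untreated ranges. The part of other cell types in the results at either time was not tested.

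At 4 d, 11 of the 35 genes were higher than in untreated libraries and 0 were lower, against 2.48% and 0.824% of all genes tested. The median log2 difference was 1.03, against -0.04 over all genes, and 34 of the 35 fitted differences were positive, as were 46.4% over all genes. In 22 of the 35 the 4 d and untreated libraries did not overlap and the 4 d libraries were the higher, as for 8.07% of all genes. The count of 11 calls depended on single libraries. It fell to 6 without untreated replicate 2, to 4 without untreated replicate 3 or 4, and to 7 without 4 d replicate 3 or 4, and it rose to 18 without 18 h replicate 2, a library of neither group compared. The 18 h and 4 d comparisons share their 4 untreated libraries, so the values at the 2 times are given side by side and are not independent. In the authors' deposited table, 17 of the 38 genes were higher at 18 h and 17 at 4 d at an adjusted p below 0.05, against 8.59% and 3.67% of its 12430 genes, and of these 16 and 11 were also called here.

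Nop2, Fbl, Rrp9, Gnl3, Gnl2, Mak16, Ltv1 and Gar1 were called at both times. Nop56, Nop16, Rrp12, Bop1, Mybbp1a, Heatr1, Nhp2 and Ftsj3 were called at 18 h only, and Nop58, Tsr1 and Ddx21 at 4 d only. The other 16 tested genes passed at neither time. A call at one time and not at the other does not show a difference between the times, which is given by the direct comparison further on.

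**Figure D2:**
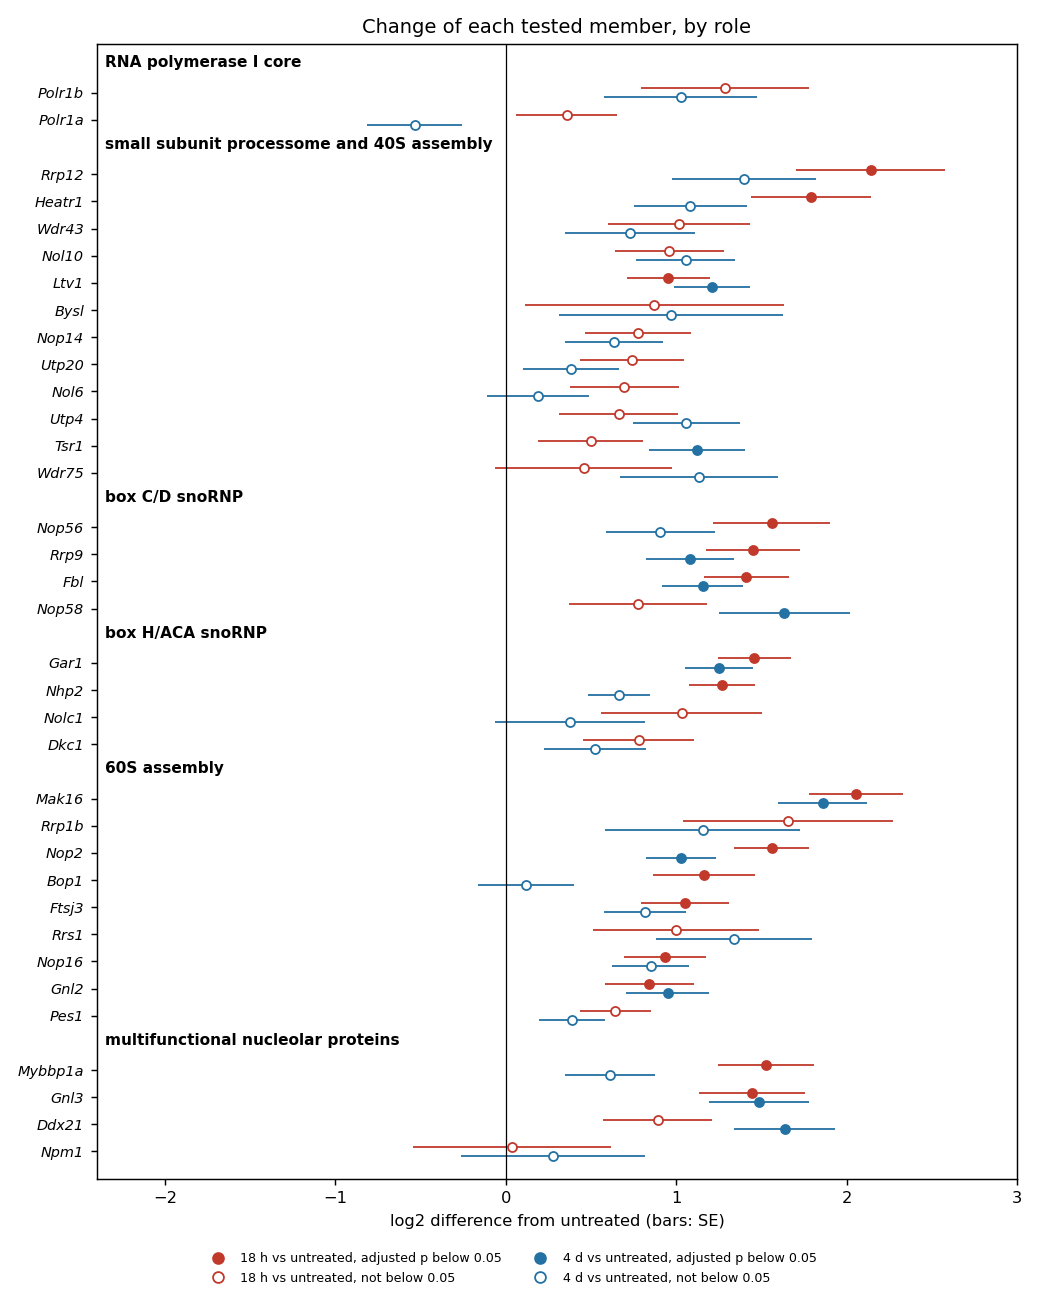
Log2 difference from untreated (x axis, bars are the SE of the fit) for each tested gene (y axis), grouped by role, at 18 h in red and 4 d in blue, with filled symbols for an adjusted p below 0.05. At 18 h all 35 points lie right of 0, from 0.04 to 2.14, and at 4 d only Polr1a lies left of it, at -0.53.

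The core of RNA polymerase I, the enzyme that transcribes ribosomal RNA, was represented by its large subunits, and neither passed the test. Polr1a, the catalytic subunit, was at 28.0, 17.4, 19.97 and 17.8 CPM in untreated replicates 1 to 4, 27.7, 31.6 and 21.5 CPM at 18 h, and 16.4, 19.1, 11 and 8.72 CPM at 4 d. Its groups overlapped at both times, with log2 differences of 0.36 ± 0.30 (SE, adjusted p 0.467 by edgeR) at 18 h and -0.53 ± 0.28 (adjusted p 0.328) at 4 d. Polr1b, the other large subunit, was at 1.04, 3.36, 4.28 and 4.16 CPM in untreated libraries, 7.46, 13.4 and 5.25 CPM at 18 h, and 4.73, 9.92, 6.0 and 6.23 CPM at 4 d. Every treated library exceeded every untreated one, yet the counts were few, and the differences of 1.28 ± 0.49 and 1.03 ± 0.45 had adjusted p-values of 0.102 and 0.237 by edgeR. The end of Polr1b also matches transcripts of 57 other genes, 39 of them in the table, by at least 95% identity over 100 bases or more, so its levels are uncertain.

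Of the 4 box C/D particle genes, 3 were called at 18 h, with a median log2 difference of 1.43, and 3 at 4 d, with a median of 1.12. Over all genes tested, 7.85% were higher at 18 h and 2.48% at 4 d. Fbl encodes fibrillarin, the methyltransferase of these particles. It was at 46.1, 29.1, 32.5 and 35.2 CPM in untreated libraries, 70.9, 87.5 and 126 CPM at 18 h, and 84.4, 65.6, 77.3 and 92.2 CPM at 4 d. All 7 treated libraries were above all 4 untreated ones, and the log2 difference was 1.41 ± 0.25 (SE, adjusted p 0.00268 by edgeR) at 18 h and 1.15 ± 0.23 (adjusted p 0.0171) at 4 d. Rrp9 encodes the protein that binds the U3 snoRNA, which is needed for the first cuts in the precursor. Its levels were 33.1, 34.2, 24.3 and 18.5 CPM in untreated libraries, 54.9, 93.6 and 77.2 CPM at 18 h, and 49.1, 53.2, 55.01 and 77.2 CPM at 4 d. Again no treated library fell within the untreated range, and the log2 differences were 1.45 ± 0.28 (adjusted p 0.00418) and 1.08 ± 0.26 (adjusted p 0.0367) by edgeR. Nop56, a scaffold of the particle, rose by 1.56 ± 0.34 at 18 h (adjusted p 0.00971), while its partner Nop58 was called at 4 d at 1.63 ± 0.38 (adjusted p 0.0325) and had 0.78 ± 0.41 at 18 h (adjusted p 0.231). The 4 d count of this group was 0 without untreated replicate 3 or 4 and 1 without untreated replicate 2 or 4 d replicate 3 or 4.

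Of the 4 box H/ACA genes, 2 were called at 18 h and 1 at 4 d, with median log2 differences of 1.15 and 0.59. The share called higher over all genes tested was 7.85% at 18 h and 2.48% at 4 d. Gar1, a core protein of these particles, was at 33.7, 26.9, 23.9 and 22.0 CPM in untreated libraries, 66.1, 76.6 and 76.3 CPM at 18 h, and 59.3, 59.2, 64.0 and 71.0 CPM at 4 d. Its replicates lay close together and all treated libraries stood above the untreated ones, so that levels rose 2.75-fold at 18 h (log2 1.46 ± 0.21, adjusted p 0.000755 by edgeR) and 2.38-fold at 4 d (1.25 ± 0.20, adjusted p 0.00723). Nhp2, another core protein, also present in telomerase, was at 98.9, 87.9, 85.6 and 99.9 CPM in untreated libraries, 246, 188 and 237 CPM at 18 h, and 154, 133, 140 and 164 CPM at 4 d. The 3 groups did not overlap, with 4 d between the others. The difference from untreated was 1.27 ± 0.19 at 18 h (adjusted p 0.00104) and 0.66 ± 0.18 at 4 d (adjusted p 0.0627) by edgeR. Dkc1, which encodes the pseudouridine synthase dyskerin, was at 8.29 to 15.7 CPM in untreated libraries and 12.9 to 31.6 CPM at 18 h, and Nolc1, a chaperone of snoRNA particles, at 8.56 to 20.2 and 12.4 to 47.4 CPM. Both overlapped between the groups and neither passed at either time.

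Of 12 factors of the small subunit processome and of 40S assembly, 3 were called at 18 h and 2 at 4 d. Called higher were 7.85% and 2.48% of all genes tested. All 12 fitted differences were positive at both times, as were 48.1% and 46.4% over all genes. The 12 had median log2 differences of 0.82 and 1.06, against -0.03 and -0.04 over all genes. Heatr1, needed for ribosomal RNA transcription and early processing, was at 11.9, 6.16, 9.27 and 8.33 CPM in untreated libraries, 26.7, 52.3 and 18.1 CPM at 18 h, and 17.5, 19.8, 22.3 and 14.95 CPM at 4 d. All treated libraries were higher than all untreated ones, with log2 differences of 1.79 ± 0.35 (adjusted p 0.00531) at 18 h and 1.08 ± 0.33 (adjusted p 0.0894) at 4 d by edgeR. Rrp12, an export and maturation factor, was at 6.73, 3.36, 4.99 and 2.27 CPM in untreated libraries, 27.2, 12.2 and 16.7 CPM at 18 h, and 10.2, 9.92, 8.0 and 21.2 CPM at 4 d. It had the largest fitted change of the 35 at 18 h, 4.41-fold (log2 2.14 ± 0.44, adjusted p 0.00629), from a low level, and it did not pass at 4 d (1.40 ± 0.42, adjusted p 0.0859). Ltv1, which accompanies the nearly finished 40S particle out of the nucleus, was at 23.8, 21.8, 15.7 and 17.8 CPM in untreated libraries, 42.1, 30.4 and 40.5 CPM at 18 h, and 37.1, 44.3, 46.7 and 56.1 CPM at 4 d. The groups did not overlap at either time, and the differences were 0.95 ± 0.24 (adjusted p 0.0210) and 1.21 ± 0.23 (adjusted p 0.0120) by edgeR. Tsr1, a late 40S factor, was called at 4 d, at 40.2 ± 4.40 CPM against 18.6 ± 6.69 in untreated libraries (SD, n = 4 each; log2 1.12 ± 0.28, adjusted p 0.0431). Its call was lost without any 1 of 8 libraries, namely untreated replicates 2, 3 and 4, 18 h replicate 1 and each 4 d library, with adjusted p-values of 0.053 to 0.152. At 18 h this group had 6 calls without untreated replicate 1, and 2 when untreated replicate 3, untreated replicate 4 or 18 h replicate 1 was left out. The members not called at either time were Utp4, Wdr43, Wdr75, Utp20, Nol6, Nol10, Nop14 and Bysl, with log2 differences of 0.46 to 1.02 at 18 h and 0.19 to 1.13 at 4 d.

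Among 60S assembly factors, 6 of the 9 tested genes were called at 18 h and 3 at 4 d, with median log2 differences of 1.05 and 0.95. For all genes tested the shares called higher were 7.85% and 2.48% and the medians -0.03 and -0.04. Mak16, a factor of early 60S particles, had the smallest adjusted p of the 35 genes at both times. It was at 10.4, 5.60, 8.20 and 8.70 CPM in untreated libraries, 34.6, 45.0 and 25.7 CPM at 18 h, and 25.8, 30.1, 34.3 and 29.9 CPM at 4 d. The lowest treated library held more than the highest untreated one at both times. Levels were 4.16-fold higher at 18 h (log2 2.06 ± 0.28, adjusted p 0.000375) and 3.63-fold higher at 4 d (1.86 ± 0.26, adjusted p 0.00392) by edgeR. Nop2, a methyltransferase of the large ribosomal RNA and a known marker of dividing cells, was at 29.0, 20.7, 23.2 and 22.0 CPM in untreated libraries, 70.4, 77.8 and 62.5 CPM at 18 h, and 39.7, 48.2, 51.0 and 56.1 CPM at 4 d. The 3 groups did not overlap, with 4 d in between, and the differences from untreated were 1.56 ± 0.22 (adjusted p 0.000498) and 1.03 ± 0.21 (adjusted p 0.0159) by edgeR.

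The other 60S factors gave less stable calls. Bop1 and Pes1 encode proteins of the PeBoW complex, which also holds Wdr12. Bop1 was called at 18 h (1.16 ± 0.30, adjusted p 0.0214) and was at 22.8, 28.0, 31.4 and 25.4 CPM in untreated libraries, 78.9, 30.4 and 68.2 CPM at 18 h, and 30.9, 37.6, 23.3 and 23.7 CPM at 4 d. In 18 h replicate 2 it lay within the untreated range. Pes1 had a log2 difference of 0.64 ± 0.21 at 18 h (adjusted p 0.0585), and Wdr12 had 0 to 6 counts per library. Nop16 (0.94 ± 0.24), Ftsj3 (1.05 ± 0.26) and Gnl2 (0.84 ± 0.26) were called at 18 h, and Gnl2 also at 4 d (0.95 ± 0.24). Rrs1 and Rrp1b passed at neither time, with differences of 1.0 ± 0.49 and 1.65 ± 0.62 at 18 h. Nip7 had 1 to 14 counts per library and was not tested. At 18 h this group had 6 calls. Leaving out untreated replicate 2 or 3 gave 3, and leaving out untreated replicate 4 gave 2, as did leaving out 18 h replicate 1. The count at 4 d, 3, became 1 without any of untreated replicates 2, 3 and 4, and 6 when 18 h replicate 2 was left out.

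The last group holds abundant nucleolar proteins with several functions. Gnl3 encodes nucleostemin, a GTP-binding protein of proliferating and stem cells, and was at 77.2, 49.8, 30.0 and 44.7 CPM in untreated libraries, 108, 191 and 114 CPM at 18 h, and 109, 129, 157 and 169 CPM at 4 d. Every treated library exceeded every untreated one, with log2 differences of 1.45 ± 0.31 (adjusted p 0.00844) and 1.49 ± 0.29 (adjusted p 0.0154) by edgeR. Mybbp1a, a nucleolar protein that binds several transcription factors, was at 81.3, 40.9, 45.7 and 51.5 CPM in untreated libraries, 159, 214 and 103 CPM at 18 h, and 86.6, 82.9, 91.0 and 73.5 CPM at 4 d. The 18 h libraries stood above all others, whereas 4 d overlapped untreated, and the differences were 1.53 ± 0.28 (adjusted p 0.00356) and 0.61 ± 0.26 (adjusted p 0.231) by edgeR. Ddx21, an RNA helicase of the nucleolus, was at 19.7, 20.7, 10.7 and 14.4 CPM in untreated libraries, 35.7, 15.8 and 35.8 CPM at 18 h, and 40.8, 43.9, 64.7 and 52.3 CPM at 4 d. It was called at 4 d (1.64 ± 0.30, adjusted p 0.0118) and not at 18 h (0.89 ± 0.32, adjusted p 0.0837), where replicate 2 lay within the untreated range.

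Of the best known nucleolar proteins, Npm1 did not pass the test at either time and Ncl had too few counts for one. Npm1, which encodes nucleophosmin, was at 68.9, 202, 188 and 287 CPM in untreated libraries, 296, 25.5 and 246 CPM at 18 h, and 192, 231, 146 and 341 CPM at 4 d. The spread within groups exceeded any difference between them, and the log2 differences were 0.04 ± 0.58 (adjusted p 0.977) and 0.28 ± 0.54 (adjusted p 0.836) by edgeR. Without 18 h replicate 2, where it was lowest, the Npm1 difference at 18 h was 0.54 (adjusted p 0.452), and without untreated replicate 1 it was -0.24 (adjusted p 0.804). Ncl, which encodes nucleolin, had 2 to 11 counts per library. It was at 3.63, 1.68, 1.78 and 3.78 CPM in untreated libraries, 4.80, 8.51 and 0.95 CPM at 18 h, and 3.27, 3.19, 3.67 and 3.74 CPM at 4 d, and the groups overlapped. As for Polr1b, the last 400 bases of other members match transcripts of other genes. Npm1 matches 7 and Nop56 5, all pseudogenes, Nop58 matches 9, of which 4 are in the table, and Fbl, Dkc1 and Wdr12 match 3 each, of which 2, 0 and 1 are pseudogenes. Mybbp1a, Bysl and Tsr1 match 1 gene each. For Mybbp1a and Bysl it is the gene that overlaps their end on the opposite strand, Spns2 and Ccnd3. How reads with several matches, or from either strand, were counted is not given, so these levels are uncertain.

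**Figure D3:**
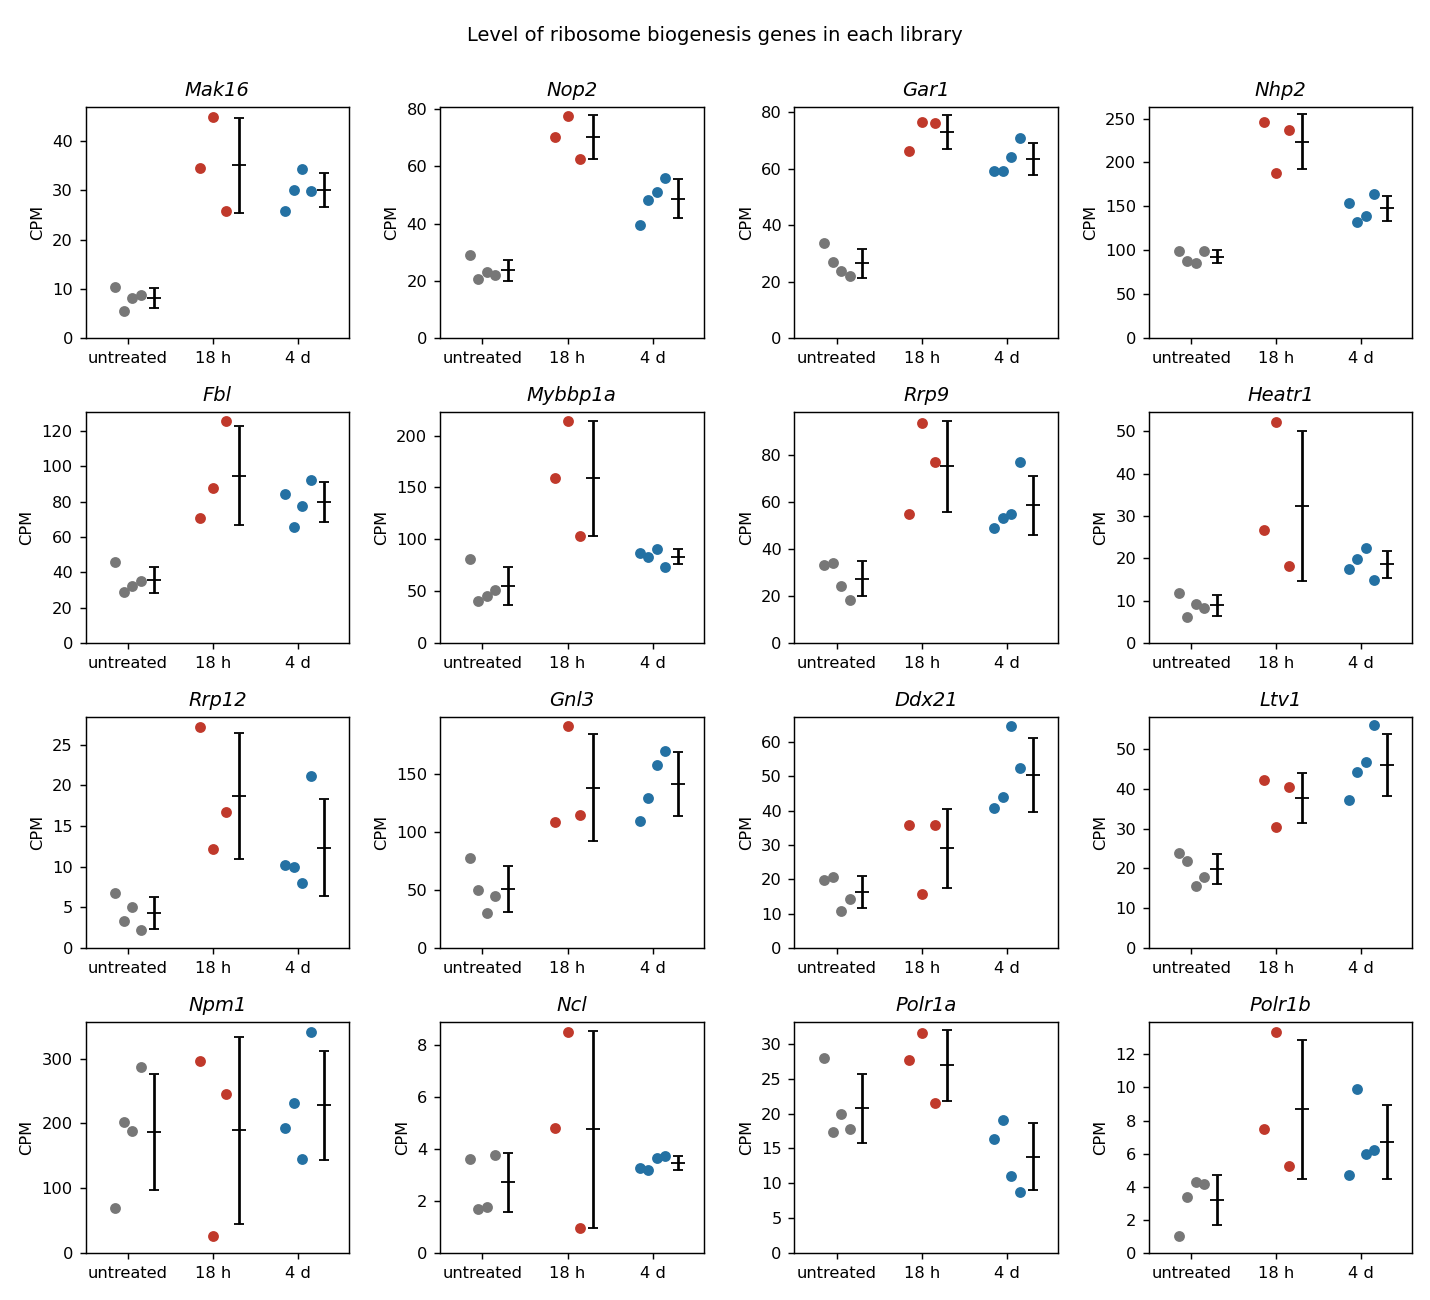
CPM (y axis, starting at 0) of 16 of the genes described library by library, 1 panel a gene, with 1 point a library and the mean with its SD beside them in black. Mak16, Gar1, Nop2, Fbl, Rrp9 and Gnl3 show treated libraries above all untreated ones at both times, while Npm1 spans 25.5 to 296 CPM within the 18 h group.

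Between the times, 0 of the 35 genes passed in either direction by edgeR, where 1.7% of all genes were called higher and 3.81% lower at 4 d than at 18 h. The median log2 difference between 4 d and 18 h was -0.25, with 12 genes estimated higher and 23 lower at 4 d, against 50% each way over all genes. An unadjusted p below 0.05 was found for 6 of the 35, and over all genes for 9.89% upward and 11.7% downward. DESeq2 called 3 lower at 4 d, namely Bop1 (adjusted p 0.0239), Mybbp1a (0.0294) and Nhp2 (0.00694), whose edgeR adjusted p-values were 0.0564, 0.0733 and 0.0882. Their log2 differences from 18 h to 4 d were -1.04 ± 0.30, -0.91 ± 0.28 and -0.60 ± 0.19 by edgeR. The authors' deposited table also held 3 members lower at 4 d, against 4.56% of its genes. The edgeR count of lower members was 2 when 18 h replicate 2 was left out, and 1 for untreated replicate 1 as for 18 h replicate 3. Ddx21 and Nop58 had the largest estimates in the other direction, 0.74 ± 0.31 and 0.86 ± 0.41, and neither passed.

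Other genes of the pathway, in lists that exclude the 38, moved in part. Beside them, 7.85% of all genes tested were higher and 4.69% lower at 18 h, and 2.48% and 0.824% at 4 d. The median log2 differences over all genes were -0.03 and -0.04. Of 40 other 60S assembly factors tested, 17 were higher and 0 lower at 18 h, with a median log2 difference of 0.82, and 5 and 0 at 4 d, with a median of 0.52. Those with the smallest adjusted p at 18 h were Ppan (2.0 ± 0.29, adjusted p 0.00063 by edgeR), Noc2l (1.47 ± 0.23, adjusted p 0.00123) and Rrp15 (1.18 ± 0.21, adjusted p 0.00307), all large subunit factors. Ppan rose from 26.0 to 43.5 CPM in untreated libraries to 97.8 to 179 CPM at 18 h and 69.9 to 137 CPM at 4 d, with no overlap. Of 35 other small subunit factors, 8 were higher and 0 lower at 18 h, with a median of 0.65, and 4 and 0 at 4 d, with a median of 0.23. Tbl3 (1.14 ± 0.25), a processome protein, was called at 18 h and was lower at 4 d than at 18 h (-1.18 ± 0.26, adjusted p 0.0142), whereas Mphosph10, which binds the U3 particle, was called at both times (1.45 ± 0.35 and 1.73 ± 0.32). These calls of Ppan, Noc2l, Rrp15, Tbl3 and Mphosph10 against untreated held without any 1 library, and that of Tbl3 between the times was lost without 4 d replicate 1 (adjusted p 0.052). The 60S count at 18 h was 11, 9 and 7 without untreated replicates 2, 3 and 4 and 8 without 18 h replicate 1, and the small subunit count was 3, 2 and 4 without the same controls and 3 and 5 without 18 h replicates 1 and 2.

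Fewer genes were called in the other lists, against 7.85% higher over all genes tested at 18 h. Median log2 differences at 18 h were 0.37 for further RNA polymerase I genes and 0.48 for other snoRNA particle assembly genes. For exosome and RNase MRP genes the median was 0.21, against -0.03 over all genes tested. Estimates at 18 h were positive in 12 of 15, 6 of 8 and 16 of 23 of these genes, and in 48.1% of all genes. At 4 d the 3 medians were -0.01, 0.13 and 0.14. Of 15 further genes of RNA polymerase I transcription, 2 were higher at 18 h, Tcof1 (0.88 ± 0.22, adjusted p 0.0176) and Cd3eap (0.88 ± 0.26, adjusted p 0.0411), and 0 at 4 d. Tcof1, which encodes the nucleolar protein treacle, was at 31.7 to 48.7 CPM in untreated libraries, 62.4 to 81.4 CPM at 18 h and 33.0 to 33.6 CPM at 4 d, and its fall between the times passed (-1.05 ± 0.22, adjusted p 0.0110). Rrn3, an initiation factor of RNA polymerase I, had a difference of 0.16 ± 0.43 at 18 h, and Ubtf had 1 to 6 counts per library and was not tested. None of 8 other snoRNA particle assembly genes passed at 18 h, and 1 had an unadjusted p below 0.05. Of 23 exosome and RNase MRP genes 2 were higher, Exosc10 (1.10 ± 0.29, adjusted p 0.0264) and Pop1 (1.60 ± 0.50, adjusted p 0.04996). The calls of Cd3eap, Exosc10 and Pop1 were each lost in at least 4 of the 11 fits without 1 library, 18 h replicate 2 among them, and that of Tcof1 at 18 h without untreated replicate 3 or 4 (adjusted p 0.058 and 0.052). RNA polymerase III genes had a median of -0.08, with 0 of 16 called and 2 at an unadjusted p below 0.05.

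Few ribosomal protein genes and cell cycle genes passed. Of 75 cytosolic ribosomal protein genes tested, 1 was higher (Rps15a) and 1 lower (Rpl22) at 18 h, with a median log2 difference of 0.26. Over all genes tested, 7.85% were higher and 4.69% lower at 18 h. At 4 d 0 of the 75 passed, with a median of 0.41. Estimates at 4 d were positive in 72 of 75, as were 46.4% over all genes. An unadjusted p below 0.05 was found for 13 of the 75 at 4 d, and for 1845 of all 10067 genes. Of 20 cell cycle genes, 0 were higher and 1 was lower at 18 h, Stmn1 (-1.77 ± 0.46, adjusted p 0.0221), and the median was -0.38. Estimates were negative in 16 of the 20 and positive in 4, and 9 had an unadjusted p below 0.05 in either direction. Over all 10067 genes, 5223 estimates were negative and 2827 had such a p. At 4 d 1 was lower, the cyclin gene Ccnd1 (-1.60 ± 0.33, adjusted p 0.0186), against 0.824% of all genes, and the median was -0.13. Each of these calls was lost in at least 2 of the fits that left out 1 library, among them those without 18 h replicate 2 for Stmn1, Rps15a and Rpl22 (adjusted p 0.051 to 0.160) and without untreated replicate 2 or 4 or 4 d replicate 2 or 3 for Ccnd1 at 4 d (0.053 to 0.072). Whether these lists differed from the 35 genes was not tested.

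The MYC network was read for the same reason as the E-box. Myc was at 243, 249, 62.4 and 149 CPM in untreated libraries, 264, 111 and 418 CPM at 18 h, and 431, 397, 634 and 608 CPM at 4 d. The 4 d libraries stood above all untreated ones and 18 h overlapped them. The log2 difference was 0.60 ± 0.45 (adjusted p 0.413) at 18 h and 1.56 ± 0.43 (adjusted p 0.0619) at 4 d by edgeR, and DESeq2 gave an adjusted p of 0.0103 at 4 d. Max, its partner, had a difference of 0.73 ± 0.25 at 18 h (adjusted p 0.0732), and Mycn was at 0 to 7.84 CPM and not tested. Of the 9 network genes tested, Mxd1, which encodes a competitor of MYC for MAX, was higher at 18 h (1.91 ± 0.41, adjusted p 0.00815) and its relative Mxi1 was lower (-1.15 ± 0.35, adjusted p 0.0461). The call of Mxd1 held without any 1 library, and that of Mxi1 was lost in 7 of the 11 such fits, namely untreated replicates 1 to 3 and replicates 1 and 2 of each treated group (adjusted p 0.056 to 0.171). The link between these levels and those of the ribosome biogenesis genes was not tested.

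**Figure D4:**
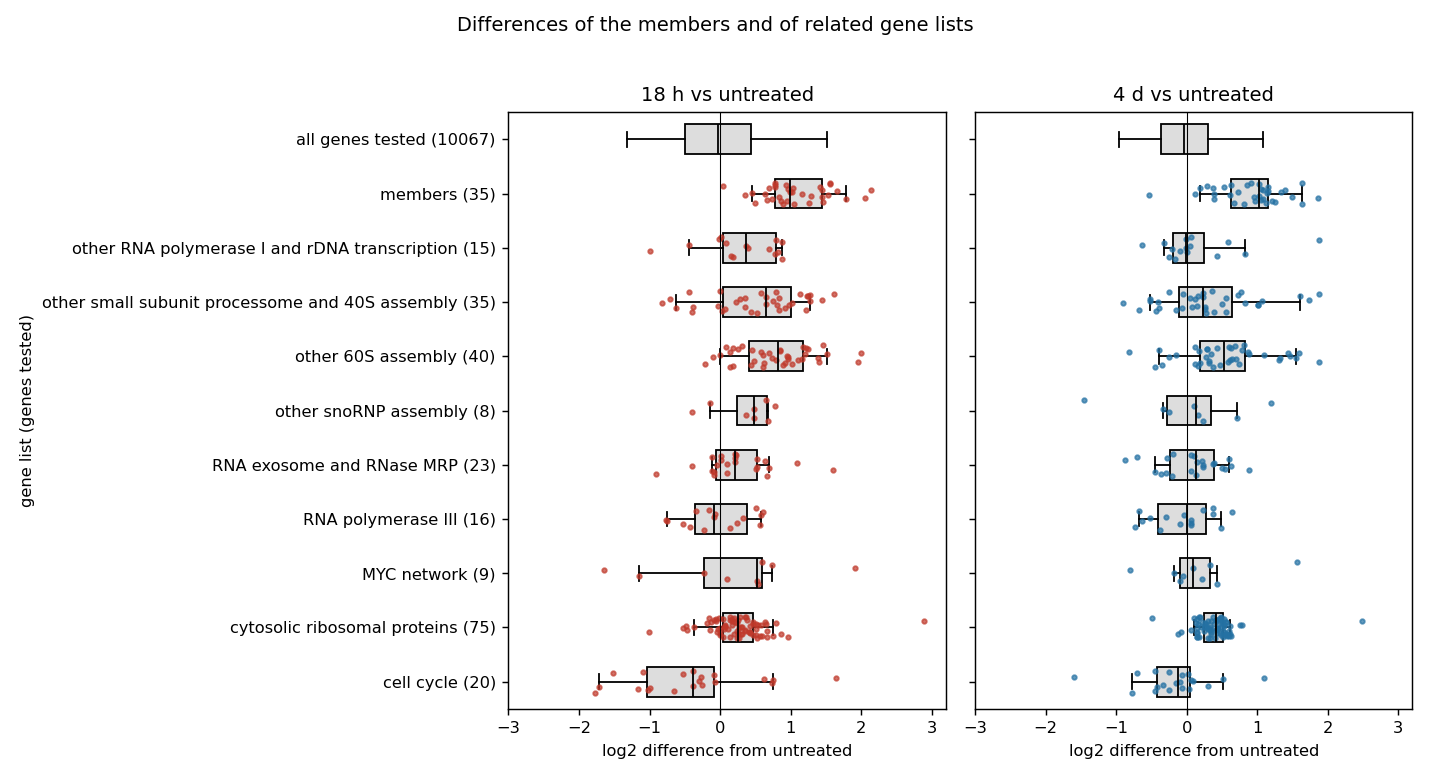
Log2 difference from untreated (x axis) at 18 h (left) and 4 d (right) for all 10067 tested genes, the 35 tested ribosome biogenesis genes and related gene lists (y axis, number tested in brackets). Boxes show the median and quartiles, whiskers the 5th and 95th percentiles and points single genes, and the median of the 35 lies at 1.0 and 1.03 against -0.03 and -0.04 for all genes.

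Some of the genes host snoRNAs, which the choice by symbol did not use. Introns of 6 of the 38 genes (15.8%) contain annotated snoRNA genes, against 146 of 9762 tested protein-coding genes matched to the annotation (1.5%). The 6 include Ncl, which was not among the tested genes. The hosts were Nop58 and Wdr43 with 3 each, Tsr1 with 2, and Nop56, Ncl and Dkc1 with 1 each, among them Snord70 and Snord11 in Nop58 and Snord110 in Nop56. Mature snoRNAs lack the polyadenylated tail that the method captures, so only the host transcripts were counted. The last 500 bases of 8 genes overlap exons of a gene on the opposite strand, and with no strand setting stated for the counting, reads there may not be separable. The pairs were Nop56 with Idh3b, Dkc1 with Mpp1, Bop1 with Mroh1, Mybbp1a with Spns2, Mak16 with Tti2, Heatr1 with Lgals8, Bysl with Ccnd3 and Nhp2 with Rmnd5b. None of these 8 partners passed at 18 h, where their log2 differences ran from -0.51 in Mpp1 to 0.59 in Lgals8, or at 4 d.

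In the GENCODE annotation of GRCm38, which has the sequence of mm10, all 38 genes are protein-coding. Mak16 spans chr8:31159463-31168764 and Gar1 chr3:129824912-129831396, both on the minus strand. On the plus strand, Nop2 spans chr6:125131909-125144753, Fbl chr7:28169710-28179269, Nhp2 chr11:51619735-51623714 and Mybbp1a chr11:72441355-72451768.

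Of the 16 calls at 18 h, 11 held when each of the 11 libraries was left out in turn and under the 8 other settings tried, namely Nop56, Nop2, Fbl, Rrp9, Rrp12, Mybbp1a, Gnl3, Mak16, Heatr1, Gar1 and Nhp2. The other 5, Nop16, Bop1, Gnl2, Ltv1 and Ftsj3, were each lost without 18 h replicate 1 and without untreated replicate 4, with adjusted p-values of 0.055 to 0.126. Further losses came without untreated replicate 2 (Nop16, Bop1 and Gnl2), untreated replicate 3 (Nop16, Gnl2, Ltv1 and Ftsj3) and 18 h replicate 3 (Bop1, Gnl2 and Ltv1). Gnl2 was also lost without 18 h replicate 2 or any 4 d library other than replicate 3. Of the 11 calls at 4 d, 4 held when any 1 library was left out, Mak16, Gar1, Ltv1 and Ddx21. At 4 d the calls of Nop2 and Fbl were lost without untreated replicate 2, 3 or 4, and that of Gnl3 without untreated replicate 3 or 4. Those of Rrp9 and Gnl2 were lost without any of these 3 or any 1 of the 4 d libraries, and Gnl2 also without 18 h replicate 1 or 3. Nop58 was lost without untreated replicate 3 or 4 or 4 d replicate 3 or 4, at adjusted p-values of 0.075 to 0.113.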

How the data were processed

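RNA of 11 libraries of sorted thymic fibroblasts was made into MARS-seq libraries, per the labels' protocols. The submitters' processing notes name the build mm10 and, as tools, DESeq2, HTSeq, STAR 2.5.2b, cutadapt and bcl2fastq. Not given in the sources used here are the annotation, the strand setting and the treatment of molecular identifiers and of reads with several matches. Per the file headers, the deposited table holds raw counts as whole numbers, and these were tested. The authors' deposited normalized signal was not used, and of the authors' deposited log2 fold changes and adjusted p-values only counts of calls are quoted. Titles of the later group read 3 d and its other labels 4 d, which is used; untreated libraries are numbered by title.

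Genes were filtered with filterByExpr (minimum count 10) and scaled by TMM in edgeR 4.0.16 (R 4.3.3), and CPM are TMM-scaled. All 11 libraries entered 1 robust quasi-likelihood fit with group as its term, each comparison was a contrast, and the threshold was 0.05 for p-values adjusted by Benjamini-Hochberg over all 10067 genes. The SE of a log2 difference is its size over the square root of the F statistic. The fit was tried on simulated data with changes at 18 h only and independent libraries. That trial does not bear on 4 d or on scatter shared by libraries, and its outcome is not given here. The 15 replicate pairs differed by more than counting noise (lowest ratio of chi-square to degrees of freedom 4.79). Limits at a count of 0 use 3 counts and cover counting error only. Library by library values are given for members that passed, up to the 10 with the smallest adjusted p at 18 h and up to 4 in each other comparison (0 passed between the times), and for Npm1, Ncl, Fbl, Polr1a and Polr1b; of each pathway list up to 3 genes with the smallest adjusted p at 18 h are named, and 6 regulators in any case. Bop1 was added after its values were seen. Other genes named are members, or the calls behind a small count, chosen after their values were seen. Members and lists were chosen with earlier results of these data known. Alternatives were another scaling (RLE), filters, DESeq2 1.42.0, limma-voom (limma 3.58.1), a fit of 2 groups, a replicate block and each library left out. Copies of transcript ends were found with blastn 2.17.0 in GENCODE transcripts, and promoters came from RefSeq. The labels state no pairing of libraries, and the replicate numbers, taken from the titles, do not settle whether there was one.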

Additional observations from a re-analysis of the deposited data

Results flagged for a closer look

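In groups of 4, 76 sets of values (38 genes in the untreated and 4 d groups) were examined for a library far from the other 3, and chance flags about 1 in 20 such groups (5%). There were 4 such cases, and in 3 of them the library was 4 d replicate 4, which had the fewest counts. In Rrp12 it was at 21.2 CPM against 8.0 to 10.2 CPM in the other 4 d libraries, a gap of 0.834 of the whole range. In Wdr75, a small subunit processome protein, it was at 26.2 against 13.0 to 14.6 CPM, a gap of 0.882. In Pes1 it was at 51.1 against 41.8 to 42.5 CPM, a gap of 0.926. In Gnl2, untreated replicate 1 was at 73.0 CPM against 39.0 to 39.8 CPM in the other 3 controls, a gap of 0.977. Without untreated replicate 1, Gnl2 stayed called at 18 h and at 4 d. Its 4 d call was lost without 4 d replicate 4, which was not the library flagged for Gnl2. Rrp12, Wdr75 and Pes1 were not called at 4 d with or without 4 d replicate 4.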

How the results depend on the processing

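The count of genes higher at 18 h was 16. It stayed between 11 and 19 when each library was left out and between 11 and 18 in the 8 other settings. No call changed direction. The 18 h differences of Npm1 and Wdr75, which were not called, fell as low as -0.43 and -0.005 when 1 library was left out. The count at 4 d, 11, was 18 by DESeq2, 18 in a fit of untreated and 4 d libraries alone and 13 by limma-voom, and ran from 4 to 18 when 1 library was left out. The count lower at 4 d than at 18 h, 0, was 3 by DESeq2, 2 without the 2 smallest libraries, and 0 to 2 when 1 library was left out. With a replicate block the counts were 11 at 18 h and 2 at 4 d (Mak16 and Gar1). The same numbers in different groups mark no stated pairing, so the block is reported here only. By title numbers, 2 of 10 same-numbered pairs deviated together (correlation above 0.1, range -0.34 to 0.19). Untreated libraries are numbered otherwise in their descriptions, so this does not settle whether libraries were paired. None of the 1968 member values recomputed reversed a call, 80 lost and 50 gained one. Over all genes, calls at 18 h were 790 higher and 472 lower, and 443 and 205 with the block. They were 250 and 83 at 4 d, 481 and 209 by DESeq2, 394 and 144 with 2 groups fitted, and 46 and 14 with the block. Between the times they were 171 higher and 384 lower, with 343 higher by DESeq2, 102 and 253 with 2 groups fitted, 111 higher without the 2 small libraries, and 74 and 231 with the block. The causes were not tested. Low counts limit Ncl, Wdr12, Nip7, Rrp1b, Bysl and Polr1b, where changes of the size seen in other genes may not be detectable.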
